A study of Mus musculus with 4 samples.

Results

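Serpins that lymphocytes are known to use were examined in regulatory T (Treg) cells, a CD4+ lineage defined by the transcription factor Foxp3 that holds other immune cells in check. The genes were chosen by name from the authors' gene table, with earlier results of these data known: 8 serpins were listed, and all 8 were found among 24346 gene rows, which hold 63 serpin rows in all. RNA was sequenced from Treg cells of 2 groups. The first, called dKO here, came from mice with floxed genes for both Tcf1 and Lef1 and has the labelled genotype Tcf1-/-Lef1-/- (2 libraries, dKO_0 and dKO_1). The second came from wild-type mice, called WT (2 libraries, WT_0 and WT_1). Mice of both groups were male, 16 weeks old and carried a Cre driven by Foxp3, so that deletion is limited to cells that express Foxp3, and the spleen cells sorted from both were Thy1.2+ CD4+ and positive for the Foxp3-Cre-GFP reporter. Tcf1 (gene Tcf7) and Lef1 are related DNA-binding proteins of T cell development and Wnt signalling.

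Serpins are protease inhibitors that work as bait. A protease cuts the exposed reactive centre loop of the serpin, the loop inserts into the body of the protein, and the protease is trapped in a covalent complex. The residues at the start of the loop, the hinge, are conserved among inhibitory serpins, while the rest of the loop varies and sets which protease is caught. Serpins of the B group lack a classical signal peptide and act mainly inside cells, where they guard lymphocytes against their own granule proteases and against proteases that leak from lysosomes. Most serpins of other groups are secreted, but mouse Serpina3g, also called Spi2A, acts in the cytosol of activated lymphocytes as an inhibitor of lysosomal cathepsins.

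The stretches that code for the reactive centre loops are shown because they set which protease is caught and because close paralogues differ there. Each runs from the hinge codons, in capitals, to the codons for a conserved proline and phenylalanine after the loop, 5′ to 3′ on the coding strand. They were read from GENCODE M21 transcripts (GRCm38).
Serpina3g: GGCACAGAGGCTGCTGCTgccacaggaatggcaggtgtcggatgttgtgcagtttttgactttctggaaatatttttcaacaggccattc
Serpina3f: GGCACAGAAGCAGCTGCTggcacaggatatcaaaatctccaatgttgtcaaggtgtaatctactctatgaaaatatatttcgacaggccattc
Serpinb9: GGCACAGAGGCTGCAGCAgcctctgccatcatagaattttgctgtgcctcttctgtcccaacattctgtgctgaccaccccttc
Serpinb6a: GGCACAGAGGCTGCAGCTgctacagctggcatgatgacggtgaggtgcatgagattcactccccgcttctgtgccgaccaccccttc
Serpinb6b: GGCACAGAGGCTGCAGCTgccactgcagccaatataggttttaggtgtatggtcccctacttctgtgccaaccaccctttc
Serpinb1a: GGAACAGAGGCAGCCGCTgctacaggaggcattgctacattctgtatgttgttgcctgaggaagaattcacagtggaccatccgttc
The loop codons lie at chr12:104241072-104241161 on the plus strand for Serpina3g and at chr12:104220245-104220337 on the plus strand for Serpina3f. They lie at chr13:33015699-33015782 on the plus strand for Serpinb9, at chr13:33918107-33918193 on the minus strand for Serpinb6a, at chr13:32978207-32978287 on the plus strand for Serpinb6b and at chr13:32842884-32842970 on the minus strand for Serpinb1a. All are annotated as coding and each lies in a single exon. In the 300 bases before the hinge, Serpina3g and Serpina3f were identical at 284 of 300 aligned positions (94.7%). In the loop codons after the hinge they were identical at 50 of 75 aligned positions (66.7%, gaps counted). Serpinb6a and Serpinb6b shared 84.2% of positions before the hinge and 65.2% in the loop after it. The 18 hinge bases were the same in Serpinb6a and Serpinb6b, and 16 of 18 were the same in Serpina3g and Serpina3f. In both pairs the loop was less alike than the sequence before it.

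FPKM, fragments mapped per kilobase of transcript and scaled to the depth of the library, is a level per length and can be set between genes. In dKO Treg cells Serpina3g stood first among the 8 genes and Serpinb6a next, and WT cells had the same top pair. In dKO the order by mean was Serpina3g, Serpinb6a, Serpina3f, Serpinb6b, Serpinb9, Serpinb1a, Serping1 and Serpine2, and the library ranges of Serpina3f and Serpinb6b overlapped. In WT the order was Serpina3g, Serpinb6a, Serpinb6b, Serpinb9, Serpinb1a, Serpina3f, Serpine2 and Serping1, and the ranges of Serpinb1a and Serpina3f overlapped. All other neighbours in these orders were apart in both libraries of the group, which is a description of 2 libraries and not a test. Serpine2 and Serping1 were under 1 FPKM and close in WT_0 (0.342 and 0.331 FPKM), so their order in WT is uncertain. Serpina3f stood above Serpinb6b, Serpinb9 and Serpinb1a by mean in dKO and below all of them in WT.

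**Figure D1:**
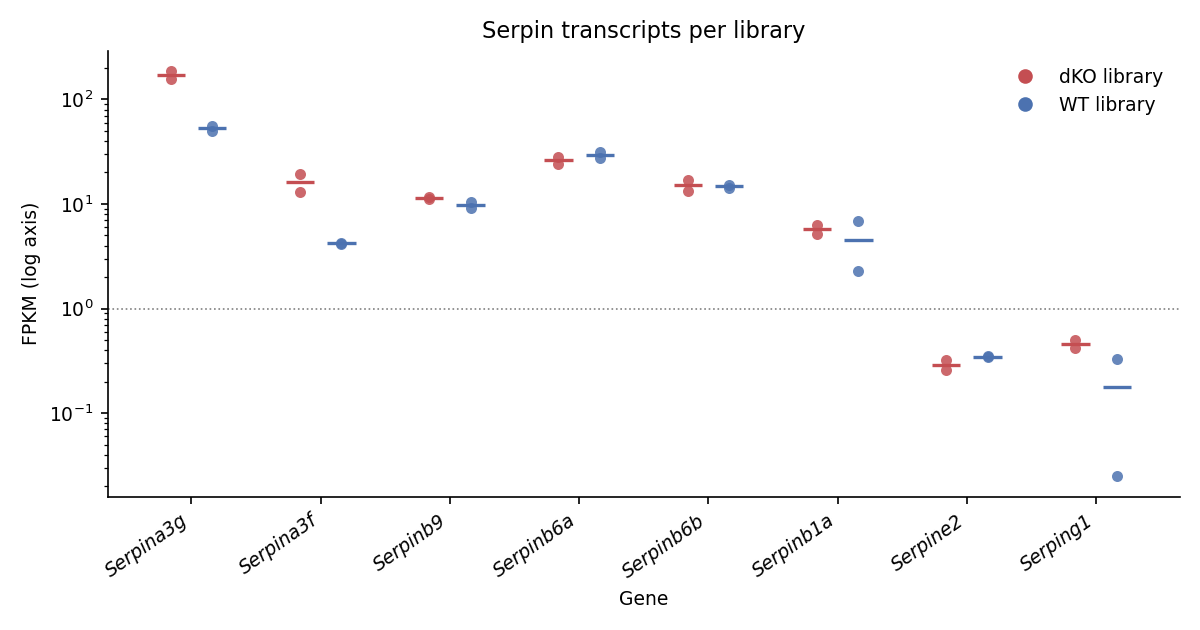
FPKM of the 8 serpins (log axis) in each library, dKO in red at the left and WT in blue at the right of each gene, with the group mean as a bar; the dotted line is an FPKM of 1. Serpina3g and Serpina3f stand apart between the groups, Serpinb6a, Serpinb6b and Serpinb1a overlap, and Serpine2 and Serping1 lie under 1 in every library.

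Serpina3g had 158 FPKM in dKO_0 and 187 FPKM in dKO_1, against 55.7 FPKM in WT_0 and 49.8 FPKM in WT_1. Both dKO libraries were above both WT libraries, and the lower dKO value was 2.84 times the higher WT value. The group means were 172 ± 20.4 FPKM in dKO and 52.7 ± 4.16 FPKM in WT (SD, n = 2 each), a ratio of 3.27. On the log2(FPKM + 1) scale the difference, dKO minus WT, was 1.69 (SE 0.111). By level, 606 rows were above Serpina3g in dKO_0 and 502 in dKO_1, against 1737 in WT_0 and 1926 in WT_1. The gene lies on chromosome 12, 104236245 to 104241939, plus strand (GRCm38), and no annotated gene overlaps it.

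Serpina3f, a close paralogue of Serpina3g, starts 21.7 kb before it on the same strand (chromosome 12, 104214544 to 104221129). It had 13.04 FPKM in dKO_0 and 19.5 FPKM in dKO_1, against 4.14 FPKM in WT_0 and 4.27 FPKM in WT_1. The groups did not overlap, the dKO libraries differed from each other by 1.49 times, and the WT libraries by 1.03 times. The means were 16.3 ± 4.55 FPKM in dKO and 4.21 ± 0.091 FPKM in WT (SD, n = 2 each), a ratio of 3.86 and a log2 difference of 1.70 (SE 0.198). Within a library, Serpina3g had 12.1 times the FPKM of Serpina3f in dKO_0 and 9.59 times in dKO_1, against 13.4 times in WT_0 and 11.7 times in WT_1. Both genes were on the list of genes higher in dKO that the authors deposited, which holds 0.76% of all rows, and none of the 8 was on the list of genes lower in dKO, which holds 0.604%. By limma, Serpina3f did not pass the adjusted threshold here.

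The neighbours of this pair in the Serpina3 cluster were low or listed at 0. Serpina3h, annotated as a transcribed pseudogene, starts 11.7 kb after the start of Serpina3g and had 1.42 FPKM in dKO_0 and 1.05 FPKM in dKO_1, against 0.343 FPKM in WT_0 and 0.458 FPKM in WT_1. It passed the filter on low values only through the dKO libraries, so a difference was built into its passing (log2 difference 0.67, SE 0.167, limma adjusted p = 0.194). Serpina3i, the next gene at 26.9 kb, had 0.2 and 0.28 FPKM in dKO_0 and dKO_1, against 0.22 and 0.243 FPKM in WT_0 and WT_1. The levels along the cluster therefore peaked at Serpina3g in both groups, and the rows on either side of the 3 genes from Serpina3f to Serpina3h were under 1 FPKM in all 4 libraries. Serpina3n, the cluster member at the far end, had 0.0847 and 0.0395 FPKM in dKO_0 and dKO_1, and was listed at 0 in both WT libraries.

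**Figure D2:**
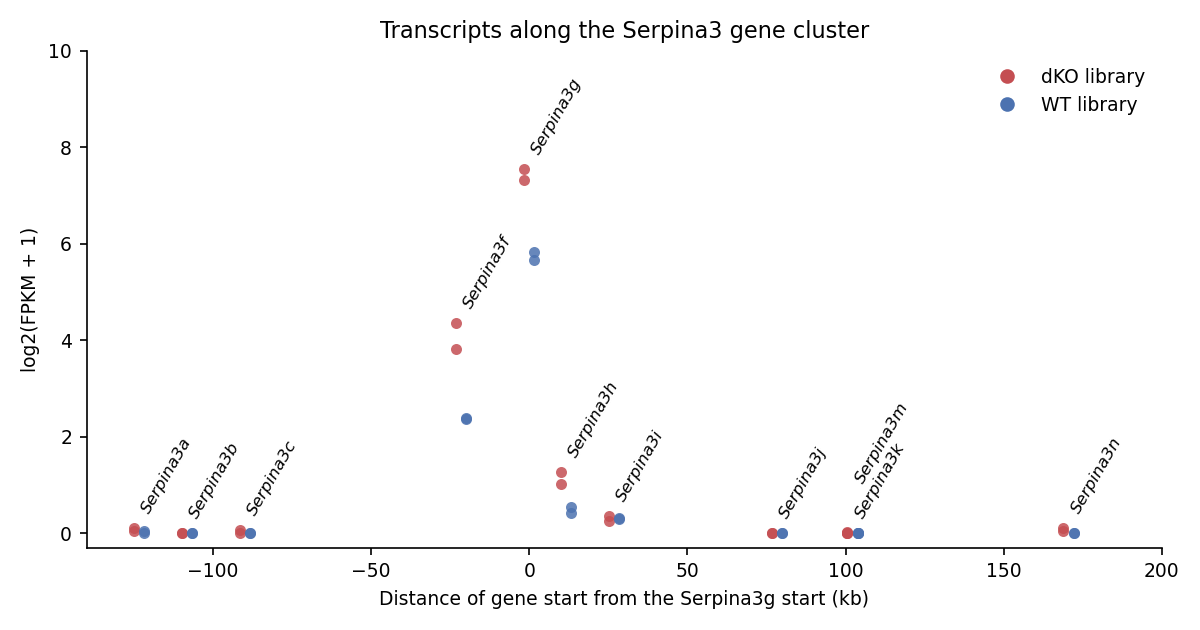
Level of each Serpina3 row, as log2(FPKM + 1), against the distance of its start from the Serpina3g start in kb; each point is a library, dKO in red drawn slightly left and WT in blue slightly right. Serpina3f, Serpina3g and Serpina3h have both dKO libraries above both WT libraries, and the remaining rows lie near 0.

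These paralogues share stretches of sequence, and how the authors' counting divided fragments among them is not given. Of all 50-base windows of the annotated Serpina3g transcripts, 15.5% also occur in a transcript of another gene, chiefly Serpina3h, Serpina3i and Serpina3f. The share was 10.6% for Serpina3f and 21.9% for Serpina3h. With 100-base windows it was 3.49% for Serpina3g, 3.4% for Serpina3f and 3.6% for Serpina3h. The levels of Serpina3h and Serpina3f are uncertain for that reason, since Serpina3g was far more abundant than either.

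The upstream regions of Serpina3g and Serpina3f are shown because the transcripts of both genes were higher in both dKO libraries. They are the 250 bases before the RefSeq start (GRCm38.p6), at chr12:104235897-104236146 and chr12:104214294-104214543, plus strand. Capitals mark the match to TTCNNNGAA, the GAS sequence that STAT proteins are known to bind.
Serpina3g: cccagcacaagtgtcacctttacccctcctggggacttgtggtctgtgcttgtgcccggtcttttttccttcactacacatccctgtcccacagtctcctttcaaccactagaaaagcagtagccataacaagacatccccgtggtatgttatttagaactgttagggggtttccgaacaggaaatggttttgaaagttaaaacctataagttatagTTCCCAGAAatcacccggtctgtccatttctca
Serpina3f: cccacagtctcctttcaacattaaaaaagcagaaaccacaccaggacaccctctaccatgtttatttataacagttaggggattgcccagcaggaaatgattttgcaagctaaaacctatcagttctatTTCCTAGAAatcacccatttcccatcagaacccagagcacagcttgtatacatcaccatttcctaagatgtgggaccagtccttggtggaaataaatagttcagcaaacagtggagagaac
The match begins 33 bases before the start in Serpina3g and 121 bases before the start in Serpina3f, which has another RefSeq start that lies 210 bases after the first base of the match. The Serpina3g gene start given above, 104236245, lies downstream of its RefSeq start, so the distance in Serpina3g depends on the annotation. The best local alignment of both regions as printed was identical at 124 of 158 positions (78.5%). Windows from 250 bases before to 50 bases after a start were searched on both strands, and matches of different motifs may overlap. TTCNNNGAA occurred in 8.3% of 32851 such windows. It also occurred upstream of Serpina3i, whose transcripts were under 1 FPKM in every library, and at a start site of Serpinb6a. The kB motif that NF-kB proteins are known to bind occurred in 2.68% of windows, among them those of Serpina3g (85 bases before the start) and Serpina3i. The ISRE motif of interferon response factors occurred in 3.44% of windows, among them those of Serpinb9 (46 bases before the start) and Serpinb6a. For TCF/LEF proteins the word CTTTGAA was searched, along with CTTTGAT and also with CTTTGTA and with CTTTGTT, and 16.9% of all windows held at least 1 of them. The windows of Serpina3g and Serpina3f held none. Serpinb9 had the reverse complement AACAAAG 237 bases before its start, and Serpina3i had CTTTGAA 219 bases before its start. A match is a description of letters and not of binding.

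Serpinb9 is the mouse inhibitor of granzyme B, the protease that cytotoxic granules deliver into target cells. It had 11.2 FPKM in dKO_0 and 11.6 FPKM in dKO_1, against 9.21 FPKM in WT_0 and 10.5 FPKM in WT_1. The groups did not overlap, but the lower dKO value was 1.06 times the higher WT value. The means were 11.4 ± 0.337 FPKM in dKO and 9.88 ± 0.949 FPKM in WT (SD, n = 2 each), with a log2 difference of 0.19 (SE 0.0912). The gene lies on chromosome 13, 33003250 to 33017957, plus strand.

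Transcripts of granzyme B itself were also measured. Gzmb had 84.1 FPKM in dKO_0 and 95.4 FPKM in dKO_1, against 8.99 FPKM in WT_0 and 8.34 FPKM in WT_1, and it rose by limma-trend, a moderated test over all rows (log2 difference 3.23, adjusted p = 0.00255, higher in both dKO libraries), a call that was lost without dKO_0 and without dKO_1. The Gzmb level was 7.54 times the Serpinb9 level in dKO_0 and 8.2 times in dKO_1, against 0.977 times in WT_0 and 0.791 times in WT_1. Transcripts of the protease thus exceeded those of its inhibitor in both dKO libraries and in no WT library. Levels of RNA do not give levels of protein.

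Serpinb6a, an inhibitor of cathepsin G and of trypsin-like proteases, lies on chromosome 13, 33917918 to 34002794, minus strand. It had 28.3 FPKM in dKO_0 and 24 FPKM in dKO_1, against 31.1 FPKM in WT_0 and 27.4 FPKM in WT_1. The groups overlapped, and the log2 difference was -0.16 (SE 0.114). Exons of Nqo2, Ripk1 and 1110046J04Rik overlap Serpinb6a on the opposite strand, and 25.1% of its 50-base windows occur in transcripts of other genes. The strand setting is not given in the sources used here, so fragments of Serpinb6a and of these genes cannot be told apart in the overlaps.

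Serpinb6b, a paralogue known in mice to inhibit granzyme A, lies on chromosome 13, 32965209 to 32979067, plus strand. It had 16.8 FPKM in dKO_0 and 13.3 FPKM in dKO_1, against 14.1 FPKM in WT_0 and 15.3 FPKM in WT_1. Both WT libraries lay between the dKO libraries. The log2 difference was 0.02 (SE 0.128), and its sign turned without dKO_0 (-0.13) and without WT_0 (-0.03). Gzma, the gene of granzyme A, had 22.1 and 32.5 FPKM in dKO_0 and dKO_1, against 30.7 and 41.1 FPKM in WT_0 and WT_1 (log2 difference -0.39, SE 0.235, limma adjusted p = 0.466). The groups overlapped for the inhibitor and for the protease.

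Serpinb1a inhibits neutrophil elastase, cathepsin G and proteinase 3 and is abundant in myeloid cells. It lies on chromosome 13, 32842092 to 32851185, minus strand. It had 5.18 FPKM in dKO_0 and 6.29 FPKM in dKO_1, against 6.81 FPKM in WT_0 and 2.3 FPKM in WT_1. WT_1 was low, WT_0 was the highest of the 4 libraries, and the WT libraries differed by 2.96 times. The log2 difference of 0.40 (SE 0.439) became -0.22 without WT_1 and 1.02 without WT_0, so a single WT library set its sign.

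The low values of the table fall on whole multiples of a step, the worth of 1 fragment, so fragment numbers could be read for rows whose 4 values came out whole within 0.02. By these steps, and setting dKO_0 to 1, the depth was 1.07 in dKO_1, 0.818 in WT_0 and 0.988 in WT_1. Serpinb1a had 223 fragments in dKO_0 and 290 in dKO_1, against 240 in WT_0 and 98 in WT_1. WT_1 was the low library by fragments as well as by FPKM. These are the smallest whole numbers that fit, and the true numbers may be a common multiple of them. The exact Poisson 95% interval, which covers counting error only, was 79.6 to 119 for WT_1 and 211 to 272 for WT_0. The intervals of the WT libraries did not overlap.

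Serping1 and Serpine2 are inhibitors found mostly outside cells, and both were under 1 FPKM in every library and did not pass the filter on low values. Serping1, the C1 inhibitor gene of the complement and contact systems (chromosome 2, 84765387 to 84775444, minus strand), had 0.419 FPKM in dKO_0 and 0.506 FPKM in dKO_1, against 0.331 FPKM in WT_0 and 0.0249 FPKM in WT_1. These values stand for 17 and 22 fragments in dKO_0 and dKO_1, against 11 and 1 in WT_0 and WT_1. The interval of WT_1 was 0.0253 to 5.57 fragments, while that of WT_0, 5.49 to 19.7, overlapped those of both dKO libraries. Both dKO libraries were above both WT libraries. The WT_1 interval lay below those of dKO_0 (9.9 to 27.2 fragments) and dKO_1 (13.8 to 33.3 fragments). The intervals of WT_0 and WT_1 overlapped only between 5.49 and 5.57 fragments. They are not scaled to depth, and WT_0 was shallower (0.818, against 0.988 in WT_1). This narrow overlap therefore does not show that the WT libraries were alike.

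Serpine2, the protease nexin-1 gene, whose protein inhibits thrombin and urokinase, lies on chromosome 1, 79794197 to 79861180, minus strand. It had 0.323 FPKM in dKO_0 and 0.261 FPKM in dKO_1, against 0.342 FPKM in WT_0 and 0.348 FPKM in WT_1. The FPKM of both dKO libraries were below those of both WT libraries, but the fragments behind them were 15 and 13 in dKO_0 and dKO_1, against 13 and 16 in WT_0 and WT_1. All 4 intervals overlapped, and no difference was detectable at this depth.

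**Figure D3:**
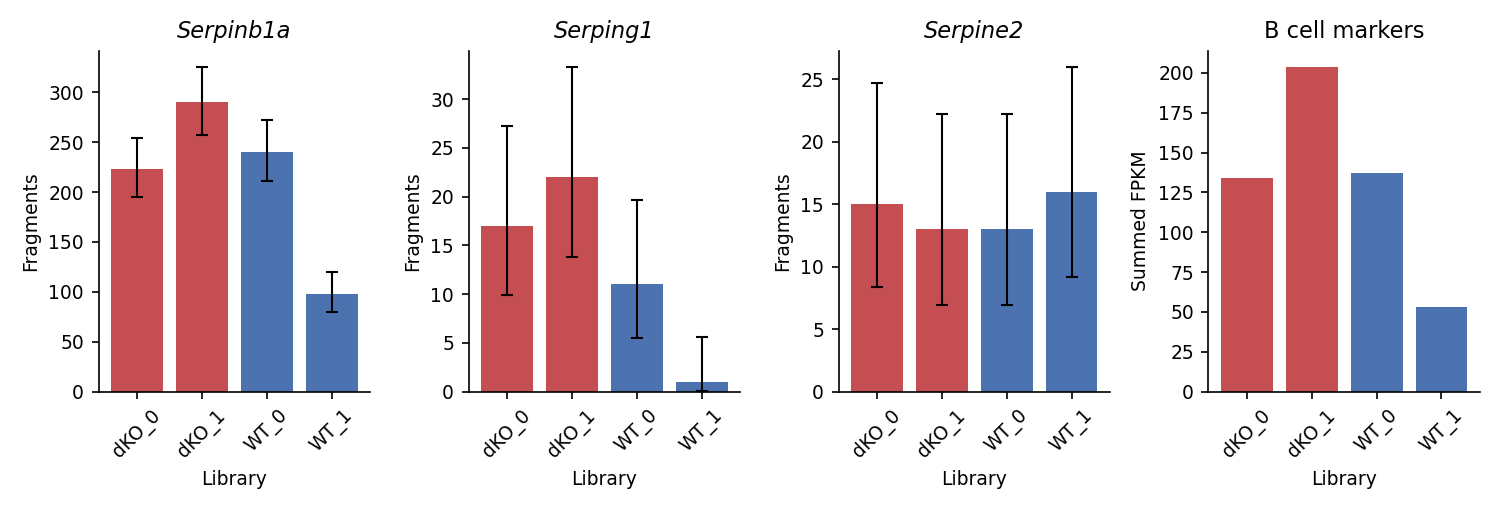
Fragments read from the steps of the FPKM values for Serpinb1a, Serping1 and Serpine2, with exact Poisson 95% intervals as bars, and the summed FPKM of 11 B cell markers, in each library (dKO red, WT blue). WT_1 is lowest for Serpinb1a, Serping1 and the B cell markers, and the Serpine2 intervals all overlap.

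Markers of other cells differed between libraries, and the sums of several marker lists are set beside the serpins here. The summed level of 11 B cell markers was 134 FPKM in dKO_0 and 204 FPKM in dKO_1, against 137 FPKM in WT_0 and 53 FPKM in WT_1, so WT_1 was lowest and dKO_1 highest, as for Serping1. Neutrophil markers, 10 genes in the table, summed to 80.3 and 128 FPKM in dKO_0 and dKO_1, against 399 and 101.2 FPKM in WT_0 and WT_1. The highest sum was in WT_0, where Serpinb1a was highest too, but the sum in WT_1, the lowest library for Serpinb1a, was above that in dKO_0. Not all neutrophil markers peaked in WT_0: Retnlg (2.02 FPKM) and Cxcr2 (2.5 FPKM) were highest in dKO_1 and Csf3r (2.72 FPKM) in WT_1. Erythroid markers, 6 genes in the table, summed to 19 and 50.9 FPKM in dKO_0 and dKO_1, against 74.1 and 6.94 FPKM in WT_0 and WT_1, the same order of libraries as Serpinb1a. None of these markers was at 0 in all libraries. Monocyte and macrophage markers, 16 genes, summed to 650 and 646 FPKM in dKO_0 and dKO_1, against 759 and 898 FPKM in WT_0 and WT_1, the opposite order to Serpina3g. Of these 16 genes, 12 had both dKO libraries below both WT libraries, as 23.4% of all rows had, and Ccr2 had both above (25.7 and 23.9 FPKM in dKO_0 and dKO_1, against 7.99 and 9.84 FPKM in WT_0 and WT_1). NK cell markers, 11 genes, summed to 129 and 114 FPKM in dKO_0 and dKO_1, against 143 and 179 FPKM in WT_0 and WT_1, also in the opposite order to Serpina3g. Tyrobp alone made up most of this sum (97.9 and 82.4 FPKM in dKO_0 and dKO_1, against 102 and 130 FPKM in WT_0 and WT_1). Of the 10 NK cell markers that passed the filter, 9 had both dKO libraries below both WT libraries and Eomes had both above. The dendritic cell sum and the stromal and endothelial sum were also in the opposite order to Serpina3g. The first was 12.62 and 12.55 FPKM in dKO_0 and dKO_1, against 12.63 and 16.5 FPKM in WT_0 and WT_1. The second was 37.5 and 33.7 FPKM, against 40 and 46.9 FPKM. Pecam1 made up nearly all of the second (36.5 and 32.5 FPKM, against 38.2 and 45.7 FPKM). Of its 10 genes, 9 were under 1 FPKM in all libraries. The sum of the 2 CD8 T cell markers was higher in both dKO libraries (9.8 and 10.1 FPKM, against 8.21 and 8.43 in WT). The plasma cell sum was lower in both dKO libraries (239 and 198 FPKM, against 401 and 290 FPKM in WT_0 and WT_1). Jchain made up most of it (152 and 102 FPKM, against 281 and 213 FPKM). Of its 7 genes, 4 had both dKO libraries below both WT libraries, as 23.4% of all rows had. Prdm1 had both above (12.6 and 12.8 FPKM in dKO_0 and dKO_1, against 8.3 and 4.59 FPKM in WT_0 and WT_1). The platelet sum overlapped. The part of such cells in these values was not tested, and in sorted bulk RNA fewer cells of a type and less RNA per cell cannot be told apart. T cell and Treg markers were high in all libraries, with Foxp3 at 133 and 144 FPKM in dKO_0 and dKO_1, against 113 and 121 FPKM in WT_0 and WT_1. The targeted genes were below WT in both dKO libraries, without passing the test (limma adjusted p = 0.158 for Tcf7 and 0.113 for Lef1), and still present: Tcf7 had 247 and 249.6 FPKM in dKO_0 and dKO_1, against 345 and 309 FPKM in WT_0 and WT_1, and Lef1 had 41.3 and 36 FPKM in dKO_0 and dKO_1, against 59.9 and 66.5 FPKM in WT_0 and WT_1. A level over the whole gene includes exons outside a floxed part and does not measure the deletion.

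Of the 8 serpins, 6 passed the filter of at least 1 FPKM in at least 2 libraries. limma, fitted over all 11595 rows that passed, called 1 of the 6, Serpina3g, at an adjusted p under 0.05, higher in dKO, and 0 lower. Where the unadjusted p was under 0.05 there were 2 higher and 0 lower, beside 9.64% and 7.08% of all rows. Over all rows the adjusted test called 0.345%, with 0.181% higher and 0.164% lower in dKO. Both dKO libraries were above both WT libraries for Serpina3g, Serpina3f and Serpinb9, 3 of the 6, and for 27.8% of all rows tested. None of the 6 had both dKO libraries below both WT libraries, as 23.4% of all rows had. The median log2 difference of the 6 was 0.30, beside 0.01 over all rows. The genes were listed with results of this comparison known, so these counts describe them and support nothing. The Serpina3g call was lost without dKO_0, without dKO_1, without the filter on low values and without the intensity trend, while its log2 difference stayed between 1.57 and 1.81 over all alternatives.

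The summed level of all 63 serpin rows was 248 FPKM in dKO_0 and 277 FPKM in dKO_1, against 136 FPKM in WT_0 and 123 FPKM in WT_1. Serpina3g made up 63.6% and 67.3% of this sum in dKO_0 and dKO_1, against 40.8% and 40.4% in WT_0 and WT_1. Without Serpina3g the sums were 90.5 and 90.6 FPKM in dKO_0 and dKO_1, against 80.8 and 73.4 FPKM in WT_0 and WT_1. The 4 B-group genes described above, Serpinb9, Serpinb6a, Serpinb6b and Serpinb1a, summed to 61.5 and 55.2 FPKM in dKO_0 and dKO_1, against 61.3 and 55.5 FPKM in WT_0 and WT_1. The summed level of these B-group genes overlapped between the groups. Their relatives nearby on chromosome 13 were low: Serpinb1b, Serpinb1c, Serpinb6c and Serpinb9b were under 1 FPKM in every library, Serpinb9d was above 0 in WT_1 alone (0.0212 FPKM), and Serpinb6d, Serpinb6e, Serpinb9c, Serpinb9e, Serpinb9f and Serpinb9g were listed at 0 in all.

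Of the other 55 serpin rows, 24 were listed at 0 in all libraries and 49 were under 1 FPKM in all. Only 5 passed the filter, limma called 0 of them, with 3 higher in dKO and 0 lower where the unadjusted p was under 0.05, as it was for 9.64% of all rows on the higher side and 7.08% on the lower. The 3 were Serpini1, Serpina9 and Serpina3h, and of these Serpina3h alone passed the filter only through the dKO libraries. Serpini1, the neuroserpin gene, whose protein inhibits tissue plasminogen activator, had 5.55 and 5.02 FPKM in dKO_0 and dKO_1, against 4 and 3.91 FPKM in WT_0 and WT_1 (log2 difference 0.34, SE 0.0936, limma adjusted p = 0.216). Serpina9, known in humans as a gene of germinal centre B cells, had 3.13 and 3.09 FPKM in dKO_0 and dKO_1, against 1.89 and 2.11 FPKM in WT_0 and WT_1 (log2 difference 0.45, SE 0.108, limma adjusted p = 0.184), and Gm28577 overlaps its exons on the same strand. Both dKO libraries were above both WT libraries for these genes, without passing the test.

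Serpinc1, the antithrombin gene, had 1.22 and 1.1 FPKM in dKO_0 and dKO_1, against 3.73 and 1.67 FPKM in WT_0 and WT_1 (log2 difference -0.72, SE 0.305, limma adjusted p = 0.339). Exons of Zbtb37 overlap Serpinc1 on the opposite strand. Serpinf1, the gene of a secreted serpin that does not inhibit proteases, had 1.05 and 2.16 FPKM in dKO_0 and dKO_1, against 1.4 and 0.562 FPKM in WT_0 and WT_1 (log2 difference 0.40, SE 0.324, limma adjusted p = 0.578). Its lowest library was WT_1 and its highest dKO_1, as for Serping1 and the B cell markers.

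**Figure D4:**
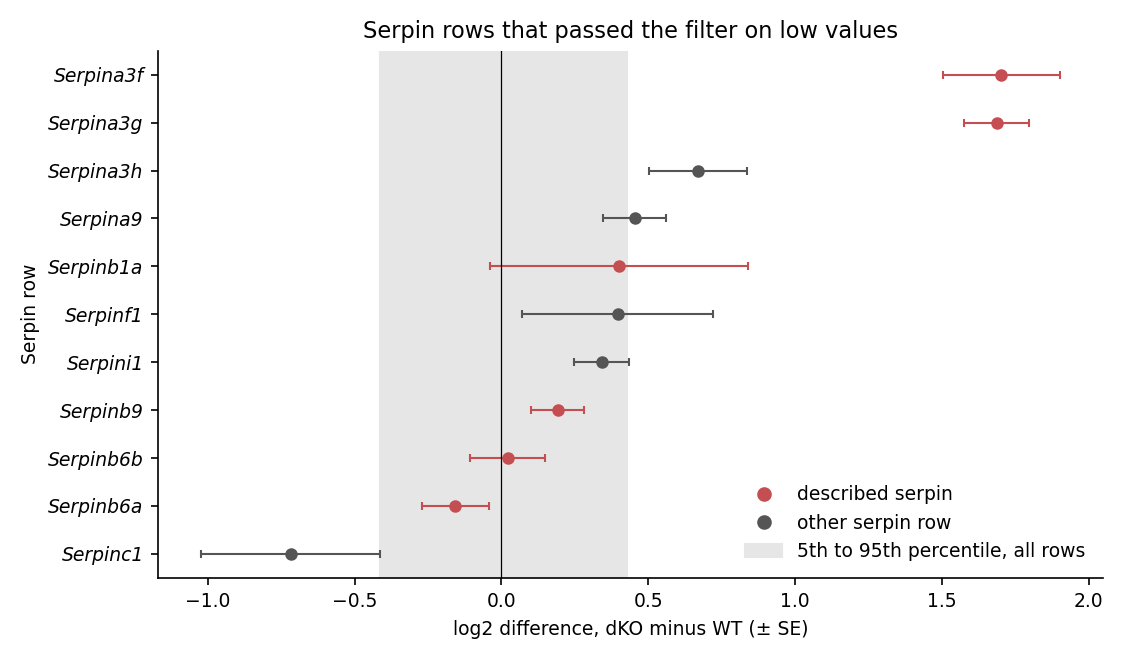
log2 difference, dKO minus WT, with its standard error, for the 11 serpin rows that passed the filter (red: the genes described, grey: other serpin rows); the grey band spans the 5th to 95th percentile of all rows tested, -0.41 to 0.43. Serpina3f, Serpina3g, Serpina3h and Serpina9 lie above the band and Serpinc1 below it.

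The proteases that serpins of this kind are known to inhibit, and their relatives, formed a list of 31 genes, of which 19 passed the filter. Of these 19, 1 rose (Gzmb), 0 fell and 18 did not pass the test, beside 0.345% called over all rows. With an unadjusted p under 0.05 there were 5 higher and 2 lower in dKO, beside 9.64% higher and 7.08% lower over all rows. Their median log2 difference was -0.02, beside 0.01 over all rows. Gzmk, of granzyme K, had 14.7 and 10.2 FPKM in dKO_0 and dKO_1, against 2.9 and 2.81 FPKM in WT_0 and WT_1 (limma adjusted p = 0.0689). Ctsw, of cathepsin W of cytotoxic lymphocytes, had 114 and 118 FPKM in dKO_0 and dKO_1, against 55.2 and 67.2 FPKM in WT_0 and WT_1 (limma adjusted p = 0.0891). Gzmb, Gzmk and Ctsw were the genes of this list that the authors' deposited list held as higher in dKO, and it held none as lower.

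Cathepsin B and cathepsin L are lysosomal proteases that Serpina3g is known to inhibit, and their genes did not pass the test. Ctsb, of cathepsin B, had 124 and 123 FPKM in dKO_0 and dKO_1, against 144 and 134 FPKM in WT_0 and WT_1 (log2 difference -0.17, limma adjusted p = 0.29). Ctsl, of cathepsin L, had 3.99 and 4.77 FPKM in dKO_0 and dKO_1, against 6.78 and 5.24 FPKM in WT_0 and WT_1 (log2 difference -0.38, limma adjusted p = 0.319). The Serpina3g level was 1.28 and 1.52 times the Ctsb level in dKO_0 and dKO_1, against 0.386 and 0.371 times in WT_0 and WT_1. It was 39.6 and 39.1 times the Ctsl level in dKO_0 and dKO_1, against 8.22 and 9.49 times in WT_0 and WT_1. Transcripts of the inhibitor thus exceeded those of cathepsin B in both dKO libraries and in no WT library, and those of cathepsin L in all 4. The most abundant proteases of the list were Ctsd, with a mean of 283 ± 0.479 FPKM in dKO and 226 ± 11.9 FPKM in WT, and Ctss, with 261 ± 11.9 FPKM in dKO and 269 ± 4.99 FPKM in WT (SD, n = 2 each). Neither passed the test (limma adjusted p = 0.16 and 0.762).

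The neutrophil proteases Elane and Prtn3, known targets of Serpinb1a, were high in WT_0. Elane had 1.11 and 1.82 FPKM in dKO_0 and dKO_1, against 6.25 and 0.959 FPKM in WT_0 and WT_1, and Prtn3 had 0.26 and 1.26 FPKM in dKO_0 and dKO_1, against 5.84 and 0.423 FPKM in WT_0 and WT_1. WT_0 was also the library with the highest sum of neutrophil markers, a list that includes Elane.

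**Figure D5:**
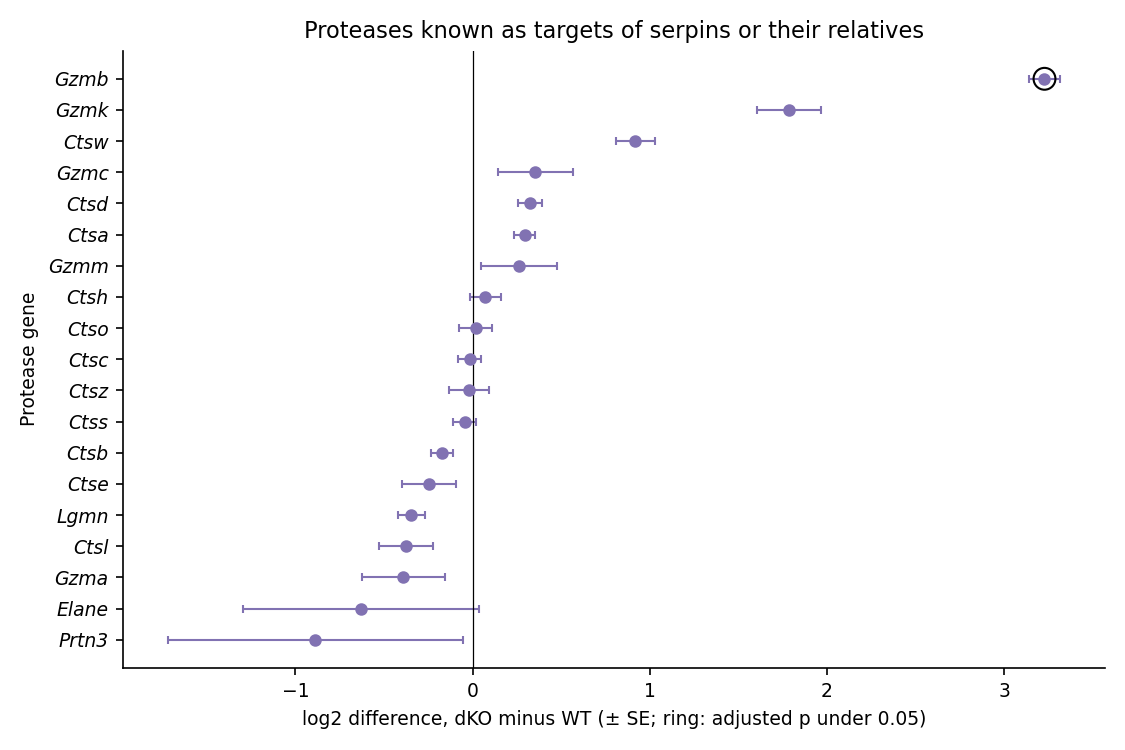
log2 difference, dKO minus WT, with its standard error, for the 19 protease genes of the list that passed the filter; a ring marks an adjusted p under 0.05. Gzmb, at 3.23, carries the ring, Gzmk and Ctsw lie to its left at 1.79 and 0.92, and the rest lie between -0.89 and 0.36.

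Other protease inhibitors formed a list of 26 genes, of which 14 passed the filter, and limma called 0 of them, with 2 higher and 1 lower where the unadjusted p was under 0.05. Over all rows 0.345% were called, and 9.64% were higher and 7.08% lower by the unadjusted p. Their median log2 difference was -0.03. Cst3, of the secreted cathepsin inhibitor cystatin C, was the most abundant and had 181 ± 7.72 FPKM in dKO and 198 ± 8.75 FPKM in WT (SD, n = 2 each; limma adjusted p = 0.417). Cst7, of cystatin F, which acts on cathepsins in the granules of immune cells, had 90.1 ± 8.61 FPKM in dKO and 88 ± 15.6 FPKM in WT (SD, n = 2 each; limma adjusted p = 0.909). Spint2, of a serine protease inhibitor of the Kunitz type, and Pebp1 were also above 100 FPKM in both groups by mean, and neither passed the test (limma adjusted p = 0.828 and 0.838).

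The rows whose pattern was nearest to Serpina3g were found by the Euclidean distance of log2(FPKM + 1) over the 4 libraries, after subtracting the mean of each row. The 5 nearest of 11375 rows, small RNA rows left out, included Nkg7 (a granule protein gene, distance 0.185), Serpina3f (0.255), the chemokine gene Ccl1 (0.256) and the chemokine gene Ccl5 (0.312), beside a median distance of 1.69. Nkg7 had 134 and 139 FPKM in dKO_0 and dKO_1, against 43.6 and 43.7 FPKM in WT_0 and WT_1. With 4 libraries in 2 groups, such likeness mostly measures a like difference between the groups.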

How the data were processed

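Splenic Treg cells of 2 dKO and 2 WT libraries were compared. Libraries were grouped by their titles; the columns number libraries from 0 and the titles from 1, so columns were tied to groups only. The labels do not call replicates separate animals; p-values therefore reflect only library spread, which may be technical. Per the submitters' processing notes, the authors' tools were Cuffdiff 2.2.1, TopHat2 2.1.0 and FastQC, with mm10; for annotation, read length and strand setting nothing was found in the labels. The authors deposited FPKM per library and per group, log2 fold changes, p-values and q-values. The authors' lists matched q under 0.05, a fold of 1.5 and an FPKM of 1 (332 rows).

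FPKM are not counts, so log2(FPKM + 1) was fitted with limma 3.58.1 in R 4.3.3 (intensity trend, two-sided, unpaired, Benjamini-Hochberg over 11595 rows; 2 residual and 2.31 prior degrees of freedom). Differences understate the change of low genes. The test was tested on simulated data. An exact permutation test of 2 against 2 cannot go below p = 0.333, and none was used. Windows, loops and motifs were read from GENCODE M21 transcripts and RefSeq promoters (GRCm38.p6) with Biopython 1.88 on Python 3.11.15. Promoters of 6 of the 8 genes were found. Alternatives were other pseudocounts (0.1 and 0.5), filters, scalings, an untrended fit and leaving out each library. The genes and lists were chosen with earlier results of these data known. Named were all 8 genes, serpin rows past the filter, serpin rows of their clusters, list members that were called or else among the 4 most abundant, Tcf7, Lef1, Foxp3 and the 5 rows nearest to Serpina3g, of which 1 is not reported here. Gzma, Gzmk, Ctsl, Elane and Prtn3 were added after their values were seen.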

Additional observations from a re-analysis of the deposited data

How the results depend on the processing

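limma called 40 rows over all genes, 16 without the filter on low values, 179 with small RNA rows left out, and 2 to 217 with a library left out (2 without dKO_0, 2 without dKO_1, 177 without WT_0 and 217 without WT_1); each such fit leaves a group with 1 library, assumed to vary like the others. Of the serpins described, 1 was called, 0 without the filter, 0 without the trend, 2 with small RNA rows left out (Serpina3f beside Serpina3g) and 0 to 1 with a library left out. Target proteases called were 1, 3 with small RNA rows left out, and 0 to 3 with a library left out. Other serpin rows and other inhibitors had 0 calls under all 12 alternatives. The sign turned for Serpinb6b without dKO_0 (-0.13; range to 0.18) and without WT_0 (-0.03) and for Serpinb1a without WT_1 (-0.22; range to 1.02); the cause was not tested. Serpina3g and Serpina3f kept their sign under all 12 alternatives, with log2 differences of 1.57 to 1.81 and 1.43 to 1.98. No paired analysis was possible because the labels pair no WT library with a dKO library, and the columns carry no replicate number of the titles. Serping1 and Serpine2 rested on 1 to 22 fragments a library, if the smallest whole numbers that fit are the true ones.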
